A study of Mus musculus with 24 samples.

Results

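A set of 10 mouse genes, Dusp26, Ppp1r1a, Mettl21c, Exph5, Doc2b, Snph, Slc15a5, Slc30a2, Tmem132b and Ctxn3, were followed in quadriceps muscle of mice with and without dystrophin, the protein that links the contractile apparatus of a muscle fibre to its membrane. The 10 genes are rows of the 24062 genes in each of 2 count tables, and they were picked because each was lower in mutant muscle, higher after gene correction, or shifted with running at 1 or 2 stages of these same data. WT mice, delEx44 mice, which lack exon 44 of the dystrophin gene Dmd, and corrected delEx44 mice were compared, all labelled C57BL/6. Corrected mice were delEx44 animals that received AAV9 vectors for a guide RNA and for SpCas9 into the peritoneum on postnatal day 4, and the labels name no promoter for Cas9 and no vector control for the other genotypes. Each genotype had 3 sedentary mice at 4 weeks, 2 mice at 8 weeks after 1 month of running down a 15 degree decline at 12 m/min on alternate days, and 3 sedentary mice at 18 months, which gave 24 libraries in 9 groups. The 4-week and run corrected mice had received 8e13 vg/kg of a self-complementary guide RNA vector and of a single-stranded Cas9 vector. The 18-month corrected mice had received 2.5e14 vg/kg of a single-stranded guide RNA vector and 5e13 vg/kg of the Cas9 vector, so dose, vector type and age cannot be told apart between those corrected groups. Run mice were also 4 weeks older than the younger sedentary mice, and age and running cannot be told apart.

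Most of these genes are better known outside muscle, and several have few described functions. Dusp26 and Ppp1r1a act on protein phosphorylation: the former is an atypical dual-specificity phosphatase of MAP kinases and other substrates, and the latter, inhibitor-1, blocks protein phosphatase 1 once protein kinase A has phosphorylated it. Mettl21c is a lysine methyltransferase enriched in skeletal muscle. Exph5 binds the vesicle GTPase Rab27, Doc2b is a calcium sensor of vesicle release, and Snph, syntaphilin, anchors mitochondria to microtubules in axons. Slc30a2, ZnT2, moves zinc into vesicles, and Slc15a5 is an orphan member of the peptide transporter family. Tmem132b and Ctxn3, cortexin 3, are membrane proteins with little known of their roles.

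Counts assigned to genes were 30.6 to 38.1 mega-counts (M) per library in the table of the 4-week and run groups and 23.1 to 31.3 M at 18 months. Levels are CPM (counts of a gene per 1 M counts of its library) scaled with TMM factors, which correct for library composition, and each table was scaled separately, so levels at 18 months can be set beside the earlier ones but were not tested against them. Dmd itself was at 204 to 240 CPM in 4-week WT, 36.1 to 41.8 in delEx44 and 155 to 172 in corrected muscle, and its delEx44 libraries were the lowest of their stage at each of the 3 stages. The label of quadriceps was matched by adult fibre markers, whose 20 genes summed to 298000 to 331000 CPM in 4-week WT and were all detected. That sum was 147000 to 186000 CPM in delEx44 at 4 weeks and 102000 to 124000 at 18 months, against 205000 to 220000 in 18-month WT, and 16 and 14 of the 20 markers fell in delEx44 at these stages with medians of -0.88 and -0.81 on the log2 scale. After running the sum was 220000 to 236000 CPM in delEx44 against 264000 to 271000 in WT, and 2 of 20 fell, with a median of -0.25. The 9 macrophage markers summed to 310 to 356 CPM in WT and 1460 to 2000 in delEx44 at 4 weeks, and 8 of 9 rose in delEx44 at each stage. In whole muscle, fewer fibres and less of an RNA per fibre cannot be told apart, and the part of these markers in the results below was not tested.

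A log2 fold change with its standard error (SE) comes from an edgeR quasi-likelihood fit of all libraries of a table, and a gene passed at a Benjamini-Hochberg adjusted p under 0.05 over all genes fitted. Since each gene was picked on its own values, an adjusted p is given only for comparisons with no library of a stage that picked it; other values are descriptions. In delEx44 against WT at 4 weeks 7 of 10 genes were called lower and 0 higher, where 25% and 25.2% of 15013 genes tested were. After running 7 were lower and 1 higher, where 14.2% and 14.9% of all genes were, and at 18 months 9 were lower and 1 higher, where 23.8% and 28.8% of 14337 genes were. These counts include the comparisons that picked the genes. Of the genes not picked at a stage, 5 of 7 fell at 4 weeks, 2 of 4 fell after running, and 5 of 6 fell and 1 of 6 rose at 18 months. The 1 that rose was Ctxn3, which goes against the description of the 10 as genes lost in the mutant. Exph5 is among the 4 genes after running, though its run values may have picked it. Slc15a5 is likewise among the 7 genes at 4 weeks, though its 4-week values may have picked it.

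**Figure D1:**
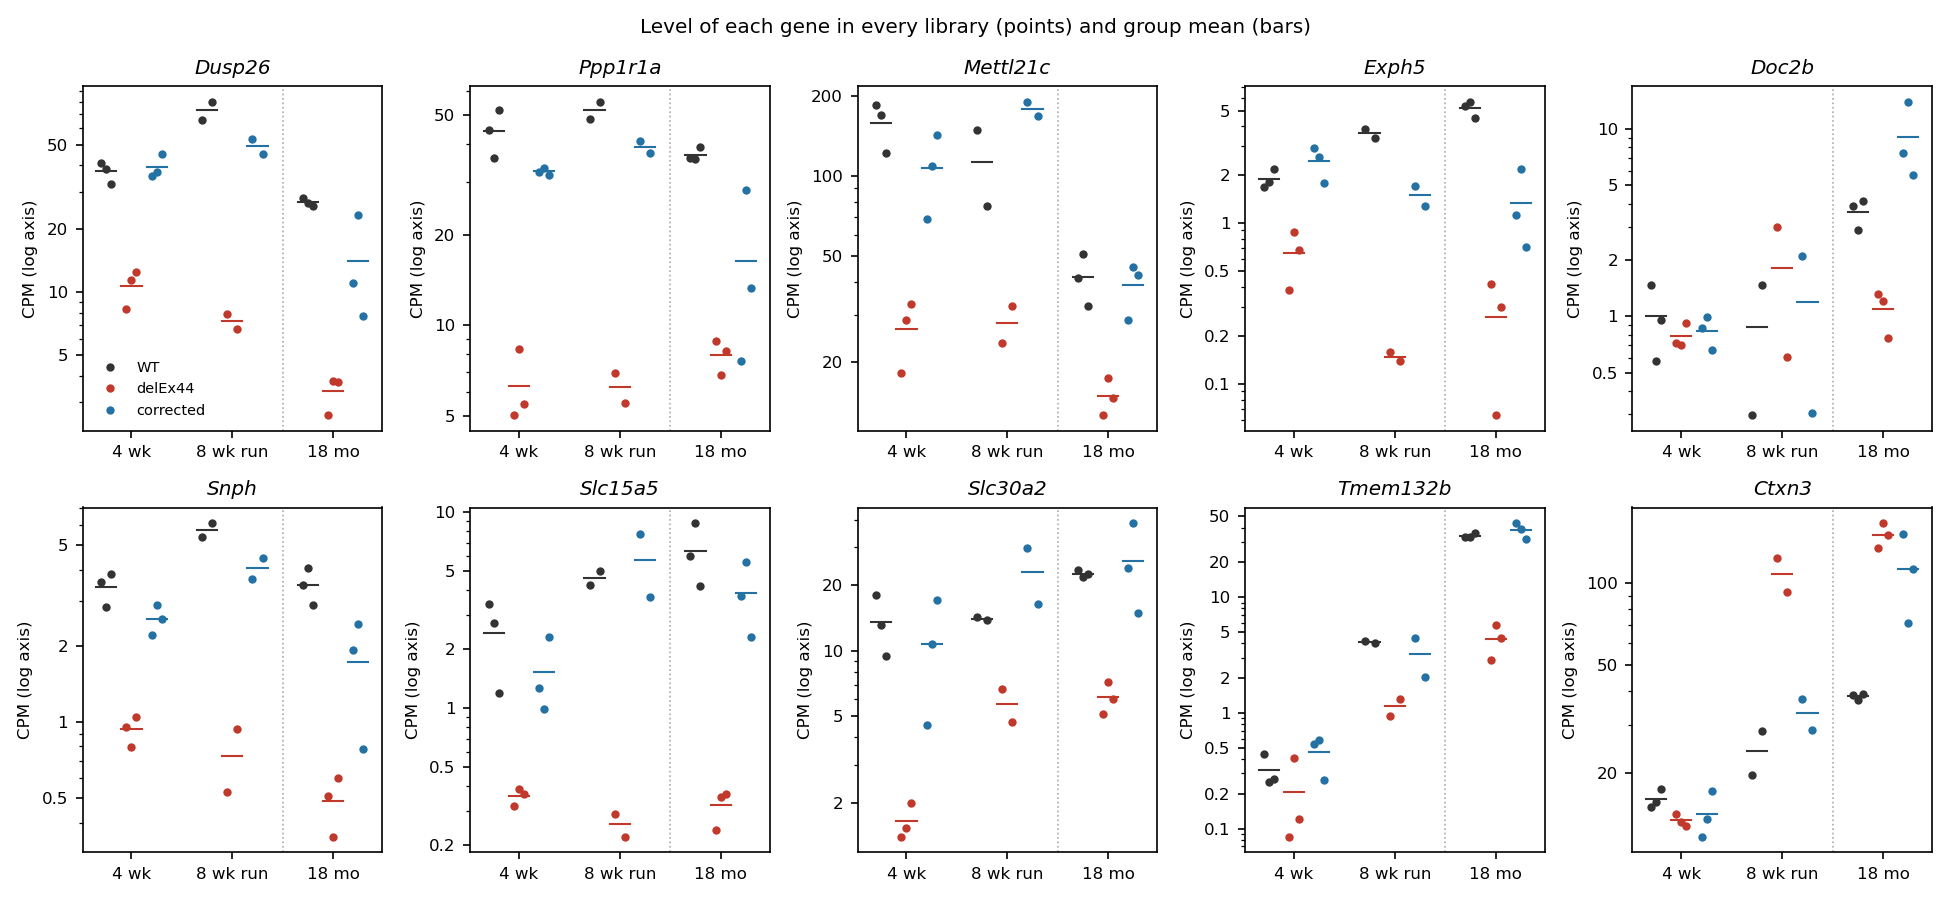
Level of each of the 10 genes in every library, in CPM on a log axis, at 4 weeks (4 wk), 8 weeks after running (8 wk run) and 18 months (18 mo), with points for libraries and bars for group means. The dotted line separates the 2 tables, which were scaled separately; delEx44 points lie below WT points for Dusp26, Ppp1r1a, Mettl21c, Exph5, Snph, Slc15a5 and Slc30a2 at every stage, and above them for Ctxn3 after running and at 18 months.

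The sequence around the start site was held for 5 of the 10 genes (Slc15a5, Exph5, Tmem132b, Snph and Slc30a2), as 300 bases from 250 before to 50 after the RefSeq start on GRCm38. The 4 shown are those among the 5 with the largest log2 difference between delEx44 and WT at 18 months, to let the starts of genes that moved together be compared. Slc15a5 is at chr6:138079867-138080166 on the minus strand, Exph5 at chr9:53301420-53301719 on the plus strand, Tmem132b at chr5:125532168-125532467 on the plus strand and Snph at chr2:151632544-151632843 on the minus strand. Capitals mark the E-box CANNTG, which basic helix-loop-helix factors of the MyoD family can bind, and in Tmem132b also the M-CAT box CATTCCT.
Slc15a5: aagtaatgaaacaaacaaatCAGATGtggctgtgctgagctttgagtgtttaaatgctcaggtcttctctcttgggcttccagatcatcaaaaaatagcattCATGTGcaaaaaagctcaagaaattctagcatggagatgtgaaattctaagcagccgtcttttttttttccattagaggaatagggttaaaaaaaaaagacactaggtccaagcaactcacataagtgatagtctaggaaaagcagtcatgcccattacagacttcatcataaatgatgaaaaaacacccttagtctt
Exph5: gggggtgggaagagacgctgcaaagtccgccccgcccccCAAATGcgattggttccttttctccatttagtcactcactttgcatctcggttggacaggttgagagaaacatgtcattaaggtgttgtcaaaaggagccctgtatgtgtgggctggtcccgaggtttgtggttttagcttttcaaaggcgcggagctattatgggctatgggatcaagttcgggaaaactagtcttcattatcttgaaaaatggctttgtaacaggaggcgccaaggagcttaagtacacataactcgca
Tmem132b: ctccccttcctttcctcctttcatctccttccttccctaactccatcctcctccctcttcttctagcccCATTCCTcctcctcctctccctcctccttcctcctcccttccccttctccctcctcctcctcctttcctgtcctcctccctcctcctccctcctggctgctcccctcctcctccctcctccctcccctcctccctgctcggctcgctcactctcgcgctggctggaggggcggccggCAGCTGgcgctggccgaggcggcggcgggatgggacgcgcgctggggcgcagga
Snph: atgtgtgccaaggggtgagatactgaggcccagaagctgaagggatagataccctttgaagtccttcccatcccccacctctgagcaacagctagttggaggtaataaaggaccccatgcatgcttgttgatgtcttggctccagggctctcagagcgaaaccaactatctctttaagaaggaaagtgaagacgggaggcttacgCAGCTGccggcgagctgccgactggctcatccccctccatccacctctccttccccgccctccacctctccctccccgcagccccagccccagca
Each of the 4 windows held a CANNTG match, as 72.3% of 32851 RefSeq promoters of this length did on either strand. The narrower CAGCTG, a subset of CANNTG preferred by MyoD, was in Tmem132b and Snph and in 16.3% of all promoters, and not in Slc15a5 or Exph5. CATTCCT was in Tmem132b alone of the 5 windows and in 5.36% of all promoters, and a MEF2 match was in none of the 5 and in 3.19% of all. The windows differed in base composition, from 36.7% G and C in Slc15a5 and 48.7% in Exph5 to 57.7% in Snph and 67.7% in Tmem132b. These matches describe letters in the windows, and no binding was measured.

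Dusp26 (chr8:31089471-31097047, GRCm38, protein-coding) was low in delEx44 muscle at each stage and overlapped WT after correction at 4 weeks. Its level at 4 weeks was 41.3, 38.4 and 32.8 CPM in the WT libraries, against 8.31, 11.4 and 12.4 in mutant ones and 35.6, 37.2 and 45.5 after correction. Run libraries held 65.8 and 80.4 CPM (WT), 7.83 and 6.7 (delEx44), and 53.7 and 45.5 (corrected). The 18-month libraries held 28, 26.6 and 25.8 CPM (WT), 2.6, 3.77 and 3.76 (delEx44), and 11.1, 23.2 and 7.71 (corrected replicates 1, 2 and 3). The delEx44 libraries lay below every other library of their stage, and corrected libraries overlapped WT at 4 weeks and lay below WT after running and at 18 months. Dusp26 fell in delEx44 at 4 weeks (log2 -1.81, SE 0.16, adjusted p = 3.4e-06) and at 18 months (log2 -2.99, SE 0.4, adjusted p = 0.00058). It rose in corrected against delEx44 muscle at both stages, by log2 1.88 (SE 0.16, adjusted p = 5.9e-06) and 2.05 (SE 0.39, adjusted p = 0.0047). The corrected minus WT value of Dusp26 was log2 0.07 (SE 0.15, adjusted p = 0.92) at 4 weeks and -0.94 (SE 0.36, adjusted p = 0.16) at 18 months. The run libraries picked the gene, and there the delEx44 difference was log2 -3.33 (SE 0.2).

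Ppp1r1a (chr15:103530279-103538003, protein-coding) was the other gene of protein phosphorylation, and in 18-month corrected muscle it overlapped the mutant range. WT libraries held 44.5, 35.9 and 51.7 CPM at 4 weeks, 48.5 and 55.3 after running, and 36, 35.6 and 39 at 18 months. Mutant libraries held 5.02, 8.31 and 5.49 CPM, then 6.93 and 5.51, then 8.86, 6.84 and 8.18. In corrected muscle it was at 32.3, 33.4 and 31.6 CPM, then 40.8 and 37.4, and at 18 months 7.61, 28.2 and 13.3. WT and delEx44 libraries did not overlap at any stage, while at 18 months corrected replicate 1 lay within the delEx44 range and replicate 2 well above it. At 18 months, the stage that did not pick it, Ppp1r1a fell in delEx44 (log2 -2.21, SE 0.42, adjusted p = 0.0039). Corrected against delEx44 was log2 1.04 (SE 0.42, adjusted p = 0.088) there and corrected against WT -1.17 (SE 0.41, adjusted p = 0.13), so neither difference passed. The former depended on which corrected library was left out: it was 1.38 without replicate 1 (adjusted p = 0.009) and 0.4 without replicate 2 (adjusted p = 0.16), and DESeq2 gave 1.08 (adjusted p = 0.045). Described without a test, delEx44 against WT was log2 -2.81 (SE 0.18) at 4 weeks and -3.06 (SE 0.23) after running, and corrected against WT -0.44 (SE 0.17) and -0.41 (SE 0.2).

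Mettl21c (chr1:44009408-44020034, protein-coding) is the methyltransferase of the group, and per kilobase of exon it was at 37 CPM in 4-week WT, just above Ppp1r1a at 33.6 and above Dusp26 at 16.2. Its WT libraries held 186, 170 and 122 CPM at 4 weeks, 150 and 77.1 after running, and 41.5, 50.8 and 32.6 at 18 months. The delEx44 libraries held 18.1, 28.7 and 33 CPM, then 23.6 and 32.4, then 12.6, 17.4 and 14.6. Corrected libraries held 69.3, 109 and 143 CPM, then 191 and 169, then 28.7, 45.6 and 42.6. All delEx44 libraries were the lowest of their stage, and corrected libraries overlapped WT at 4 weeks and 18 months. Mettl21c fell in delEx44 at 4 weeks (log2 -2.58, SE 0.35, adjusted p = 0.00017) and at 18 months (log2 -1.49, SE 0.22, adjusted p = 0.00085). It rose with correction by log2 2.01 (SE 0.34, adjusted p = 0.00092) and 1.39 (SE 0.22, adjusted p = 0.0017), and corrected against WT was -0.58 (SE 0.33, adjusted p = 0.61) and -0.1 (SE 0.22, adjusted p = 0.82). After running, where the gene was picked, the delEx44 difference was log2 -2.02 (SE 0.42) and the 2 corrected libraries lay above both WT libraries.

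Exph5 (chr9:53301670-53377514, protein-coding), the Rab27 effector, was low in delEx44 muscle at each stage, and from 4 weeks to the run stage it rose in WT and fell in delEx44. At 4 weeks it was at 1.67, 1.81 and 2.17 CPM (WT), 0.383, 0.885 and 0.683 (delEx44), and 2.92, 2.56 and 1.78 (corrected). Run libraries held 3.86 and 3.39 CPM (WT), 0.158 and 0.138 (delEx44, from 6 and 5 counts), and 1.69 and 1.28 (corrected). The 18-month values were 5.36, 5.68 and 4.5 CPM (WT), 0.419, 0.0639 and 0.299 (delEx44, from 14, 2 and 9 counts), and 1.12, 2.16 and 0.714 (corrected). Corrected libraries thus overlapped WT at 4 weeks and lay between the mutant and WT ranges at the other stages. Exph5 fell in delEx44 at 4 weeks (log2 -1.54, SE 0.28, adjusted p = 5e-04) and after running (log2 -4.58, SE 0.41, adjusted p = 2e-05), and it rose with correction by 1.9 (SE 0.27, adjusted p = 0.00012) and 3.29 (SE 0.43, adjusted p = 0.00041). Since its counts in delEx44 were low and the filter on low counts can keep a gene for its level in other groups, these differences were refitted with no filter, where the adjusted p were 0.00037 and 6.4e-06 for the falls and 7e-05 and 0.00022 for the rises. Corrected against WT went from log2 0.37 (SE 0.25, adjusted p = 0.69) to -1.29 (SE 0.31, adjusted p = 0.29), and at 18 months, the stage that picked the gene, it was -1.97 (SE 0.41). The run stage was counted as not picking Exph5, whose highest group mean there, 3.62 CPM in WT, was under a cutoff of 5 CPM. Its run difference was nonetheless larger than that of Dusp26 (log2 -3.33), which the run stage picked. Its adjusted p in run libraries may therefore rest on values that picked it.

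From 4 weeks to the run stage Exph5 rose in WT by log2 0.94 (SE 0.27, adjusted p = 0.022) and fell in delEx44 (log2 -2.1, SE 0.43, adjusted p = 0.0026), and in corrected muscle it was at -0.71 (SE 0.29, adjusted p = 0.089). The difference between delEx44 and WT itself changed by log2 -3.04 (SE 0.51, adjusted p = 0.027). This last call was lost without delEx44 run replicate 1 or 2, WT 4-week replicate 2 or WT run replicate 1, with values of -3.14, -2.95, -3.01 and -2.94 and adjusted p from 0.053 to 0.11; with no filter on low counts its adjusted p was 0.022. The rise in WT was also lost without WT 4-week replicate 1 or 2 or either WT run replicate, at adjusted p from 0.06 to 0.12. With no filter on low counts the adjusted p was 0.023 for the rise in WT and 0.0022 for the fall in delEx44. Over the same step in delEx44, 12 of 20 adult fibre markers rose and 0 fell, while 7 of 9 macrophage markers and 8 of 8 young fibre markers fell. The part of these markers in the values of Exph5 was not tested.

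Doc2b (chr11:75768966-75796049, protein-coding), the vesicle calcium sensor, differed between genotypes at 18 months only as a description, since that stage picked it. At 4 weeks it was at 1.48, 0.578 and 0.952 CPM (WT), 0.723, 0.704 and 0.928 (delEx44), and 0.864, 0.991 and 0.66 (corrected). After running the libraries of a group differed widely, at 0.297 and 1.47 CPM (WT), 3 and 0.609 (delEx44), and 2.09 and 0.307 (corrected). At 18 months it was at 3.87, 2.89 and 4.12 CPM (WT), 1.32, 1.21 and 0.765 (delEx44), and 7.45, 14 and 5.67 (corrected), so corrected libraries lay above WT and WT above delEx44 without overlap. The log2 difference from WT there was -1.71 (SE 0.37) in delEx44 and 1.32 (SE 0.33) in corrected muscle, while corrected against delEx44 was 3.02 (SE 0.36). In the libraries that did not pick it no difference passed: delEx44 against WT was log2 -0.37 (SE 0.74, adjusted p = 0.7) at 4 weeks and 1.03 (SE 0.87, adjusted p = 0.41) after running, and corrected against delEx44 was 0.1 (SE 0.75, adjusted p = 0.92) and -0.61 (SE 0.85, adjusted p = 0.64). Leaving out delEx44 run replicate 1 turned the run values to -0.54 and 0.96. An exon of Doc2b is overlapped by the opposite-strand transcript Gm12339, and the strand setting of the authors' counting is not known here.

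Snph (chr2:151590549-151632593, protein-coding), the anchor of mitochondria, was low in delEx44 muscle at each stage and intermediate in old corrected muscle. Its 4-week levels were 3.56, 2.85 and 3.84 CPM (WT), 0.957, 0.795 and 1.05 (delEx44), and 2.21, 2.89 and 2.54 (corrected). Run libraries held 5.4 and 6.1 CPM (WT), 0.527 and 0.941 (delEx44), and 3.68 and 4.44 (corrected). The 18-month libraries held 3.47, 4.05 and 2.89 CPM (WT), 0.509, 0.352 and 0.599 (delEx44), and 1.93, 2.44 and 0.785 (corrected). Every delEx44 library lay below every WT and corrected library of its stage. Snph fell in delEx44 at 4 weeks (log2 -1.87, SE 0.2, adjusted p = 1.1e-05) and at 18 months (log2 -2.83, SE 0.39, adjusted p = 0.00024), and rose with correction by 1.44 (SE 0.21, adjusted p = 0.00012) and 1.8 (SE 0.4, adjusted p = 0.0051). Corrected against WT was log2 -0.43 (SE 0.19, adjusted p = 0.48) at 4 weeks and -1.03 (SE 0.34, adjusted p = 0.1) at 18 months. The run stage picked Snph, with log2 -2.97 (SE 0.26) in delEx44 against WT. Of the 12 Schwann cell and nerve markers tested, 7 fell and 3 rose in delEx44 against WT at 4 weeks (median -0.47), 5 fell and 2 rose after running (median -0.47), and 3 fell and 4 rose at 18 months (median -0.2); their part in the level of Snph was not tested.

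Slc15a5 (chr6:137983586-138079916, protein-coding), the orphan transporter, was nearly lost in delEx44 muscle. WT libraries held 3.4, 2.71 and 1.19 CPM at 4 weeks, 4.27 and 5 after running, and 6.01, 8.8 and 4.21 at 18 months. In delEx44 the values were 0.319, 0.386 and 0.366 CPM, then 0.29 and 0.221, then 0.24, 0.352 and 0.366, each from 8 to 17 counts. Corrected muscle held 1.27, 0.991 and 2.31 CPM, then 7.73 and 3.69, then 3.75, 5.56 and 2.32. No delEx44 library reached a WT or corrected one, and corrected and WT libraries overlapped at all 3 stages. At 4 weeks, a stage counted as not picking it, Slc15a5 fell in delEx44 (log2 -2.75, SE 0.46, adjusted p = 0.00033). It rose with correction (log2 2.07, SE 0.47, adjusted p = 0.0032), and corrected against WT was -0.68 (SE 0.4, adjusted p = 0.61). Its highest group mean there, 2.43 CPM in WT, was under the cutoff of 5 CPM used to infer picking. The fall was near that of Ppp1r1a (log2 -2.81), which 4 weeks picked. Its 4-week adjusted p may therefore rest on values that picked it. With no filter on low counts the adjusted p of the fall was 0.00037 and that of the rise 0.0038. As a description, delEx44 was at log2 -4.16 (SE 0.59) from WT after running and -4.31 (SE 0.43) at 18 months.

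Slc30a2 (chr4:134343181-134354484, protein-coding), the zinc transporter, was lower in every delEx44 library than in any WT library of its stage. Its 4-week levels were 18, 13.1 and 9.46 CPM (WT), 1.4, 1.54 and 2 (delEx44), and 4.56, 10.7 and 17.1 (corrected). Run libraries held 14.3 and 13.8 CPM (WT), 6.69 and 4.73 (delEx44), and 29.7 and 16.4 (corrected). The 18-month libraries held 23.6, 21.8 and 22.5 CPM (WT), 5.12, 7.23 and 5.99 (delEx44), and 23.9, 38.6 and 14.9 (corrected). The mutant mean was 12.2% of the WT mean at 4 weeks, 40.6% after running and 27% at 18 months. The delEx44 difference after running did not pass (log2 -1.3, SE 0.52, adjusted p = 0.085), although both libraries lay below both WT libraries, and it did pass in a fit of those 2 groups alone (adjusted p = 0.01). Slc30a2 fell in delEx44 at 18 months (log2 -1.89, SE 0.32, adjusted p = 0.0018), and it rose with correction after running (log2 2.01, SE 0.52, adjusted p = 0.019) and at 18 months (log2 2.07, SE 0.32, adjusted p = 0.0017). The rise after running was lost without corrected run replicate 1 or either delEx44 run replicate, at adjusted p from 0.058 to 0.15.

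Tmem132b (chr5:125531774-125792583, protein-coding) was near its detection limit at 4 weeks and among the well-expressed members at 18 months. At 4 weeks it had 14, 7 and 9 counts in WT (0.441, 0.253 and 0.268 CPM), 4, 18 and 5 in delEx44 (0.085, 0.409 and 0.122 CPM), and 20, 20 and 8 in corrected muscle (0.54, 0.583 and 0.264 CPM). Run libraries held 4.18 and 4.01 CPM (WT), 0.949 and 1.33 (delEx44), and 4.45 and 2.04 (corrected). The 18-month libraries held 33.3, 32.9 and 36.1 CPM (WT), 2.84, 5.72 and 4.46 (delEx44), and 43.7, 39 and 31.9 (corrected). The genotypes overlapped at 4 weeks, and delEx44 lay below the others at the later stages. From 4 weeks to the run stage Tmem132b rose in all 3 genotypes, by log2 3.66 in WT (SE 0.49, adjusted p = 0.00025), 2.45 in delEx44 (SE 0.53, adjusted p = 0.0035) and 2.78 in corrected muscle (SE 0.46, adjusted p = 0.0013). With no filter on low counts these adjusted p were 0.00017, 0.0033 and 0.001. The change of the delEx44 difference over that step did not pass (log2 -1.2, SE 0.76, adjusted p = 0.43).

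In delEx44 against WT, Tmem132b was at log2 -0.64 (SE 0.58, adjusted p = 0.38) at 4 weeks and fell after running (log2 -1.85, SE 0.48, adjusted p = 0.012); without delEx44 4-week replicate 2 the 4-week value was -1.61 (adjusted p = 0.041), and without delEx44 run replicate 1 the run value was -1.62 (adjusted p = 0.087). It rose with correction after running (log2 1.51, SE 0.48, adjusted p = 0.038). That call was lost without corrected run replicate 1 (log2 0.84, adjusted p = 0.36), without delEx44 run replicate 1 (adjusted p = 0.18) or 2 (adjusted p = 0.092), and in a fit of those 2 groups alone (adjusted p = 0.094). With no filter on low counts the adjusted p was 0.041 for this rise and 0.012 for the fall in delEx44 after running. Corrected against WT was log2 0.53 (SE 0.54, adjusted p = 0.8) at 4 weeks and -0.34 (SE 0.45, adjusted p = 0.86) after running. The 18-month libraries picked the gene and showed log2 -2.98 (SE 0.22) in delEx44 and 0.16 (SE 0.19) in corrected muscle against WT.

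Ctxn3, a protein-coding gene, ran against the rest: it was near the WT level in 4-week mutants and well above it in older ones. Its 4-week levels were 15, 15.7 and 17.5 CPM (WT), 14.2, 13.3 and 12.8 (delEx44), and 11.7, 13.6 and 17.3 (corrected). Run libraries held 19.8 and 28.6 CPM (WT), 124 and 92.8 (delEx44), and 37.6 and 28.9 (corrected). The 18-month libraries held 38.7, 37.1 and 39.2 CPM (WT), 134, 166 and 150 (delEx44), and 152, 71.6 and 113 (corrected). Corrected muscle thus lay near WT after running and overlapped delEx44 at 18 months. At 18 months, the stage that did not pick it, Ctxn3 rose in delEx44 against WT (log2 1.97, SE 0.24, adjusted p = 0.00036) and in corrected muscle against WT (log2 1.55, SE 0.24, adjusted p = 0.022), and corrected against delEx44 was -0.42 (SE 0.23, adjusted p = 0.19). Without corrected replicate 1 that last difference passed, at -0.7 (adjusted p = 0.015). The rise in corrected muscle was lost without any of the 3 WT libraries and in a fit of those 2 groups alone, at adjusted p from 0.064 to 0.11. The run and 4-week libraries picked the gene, and there the delEx44 difference from WT went from log2 -0.26 (SE 0.18) to 2.17 (SE 0.21). The antisense gene 4930511M06Rik overlaps an exon of Ctxn3.

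**Figure D2:**
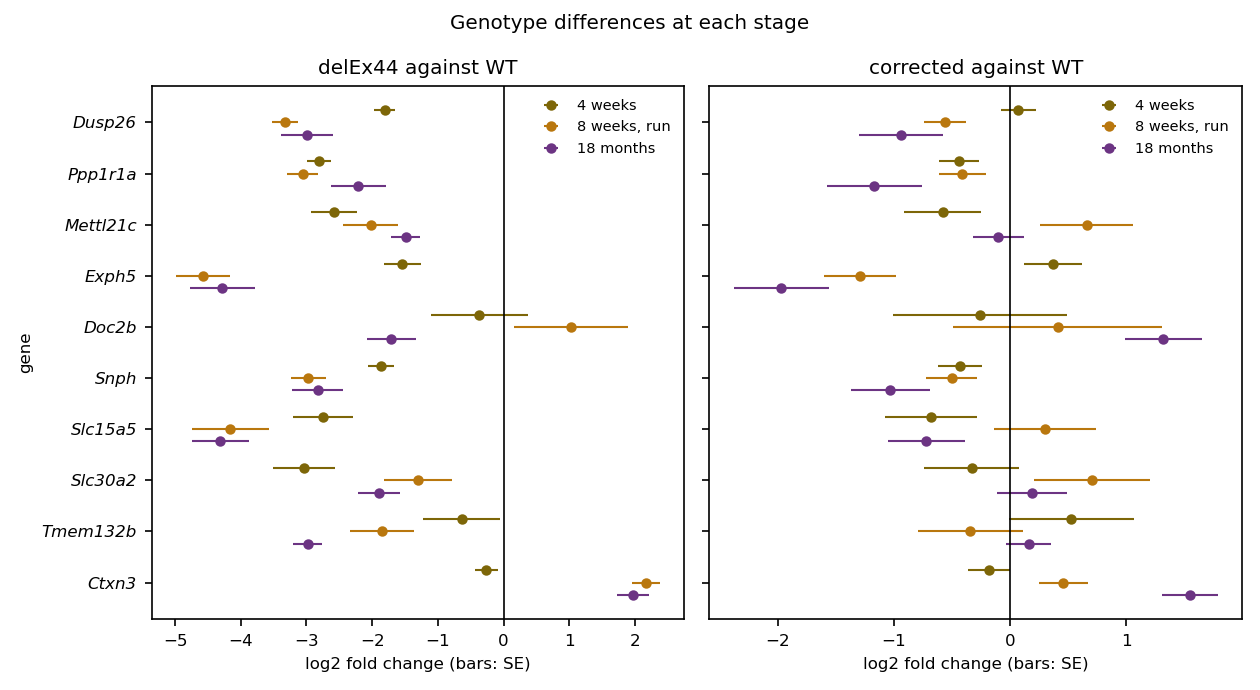
Log2 fold change of each gene in delEx44 (left) and corrected (right) against WT muscle at 4 weeks, 8 weeks after running and 18 months, with bars for the SE of the fit. In delEx44 9 of 10 genes lie left of 0 at 18 months and Ctxn3 lies at 1.97; in corrected muscle at 18 months values run from -1.97 for Exph5 to 1.55 for Ctxn3.

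Correction raised most of the genes that were low in delEx44. Against delEx44, corrected muscle had 7 of 10 genes higher and 0 lower at 4 weeks, where 22.1% and 24.2% of all genes were. After running 8 were higher and 1, Ctxn3, lower, where 10.8% and 12.4% were, and at 18 months 8 were higher and 0 lower, where 19.6% and 21.4% were. Adult fibre markers rose with correction for 19 of 20 at 4 weeks, 3 of 20 after running and 15 of 20 at 18 months (where 1 fell). Macrophage markers fell with correction for 8 of 9 at 4 weeks and 8 of 9 after running, while at 18 months 0 fell and 1 rose. The part of either in the members' values was not tested. Among the genes that a stage did not pick, 5 of 7 rose at 4 weeks, 3 of 4 after running and 4 of 6 at 18 months. The 4 after running again include Exph5, whose run values may have picked it, and the 7 at 4 weeks include Slc15a5, whose 4-week values may have. The same mutant libraries served here and in the comparison of mutant with WT. Corrected against WT had 0 of 10 genes called at 4 weeks, where 0% of all genes were called in either direction; 2 members had an unadjusted p under 0.05. DESeq2 and limma-voom also called 0 members, while over all genes DESeq2 called 220 and limma-voom 0. Without corrected 4-week replicate 3 the edgeR fit called 68 over all genes. After running 0 members were called, where 0.00666% of all genes were higher and 0.0133% lower, and 4 members had an unadjusted p under 0.05. DESeq2 called 1 member there, Exph5, and 82 over all genes. At 18 months 1, Ctxn3, was higher and 1, Exph5, was lower, where 2.34% and 2.43% of all genes were, and 6 members had an unadjusted p under 0.05. This same comparison picked Exph5, so its call is a description. That call was lost in 5 of 11 alternative fits, over which the values ran from -2.5 to -1.66. Of the 6 genes that 18 months did not pick, 1, Ctxn3, was higher and 0 were lower.

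**Figure D3:**
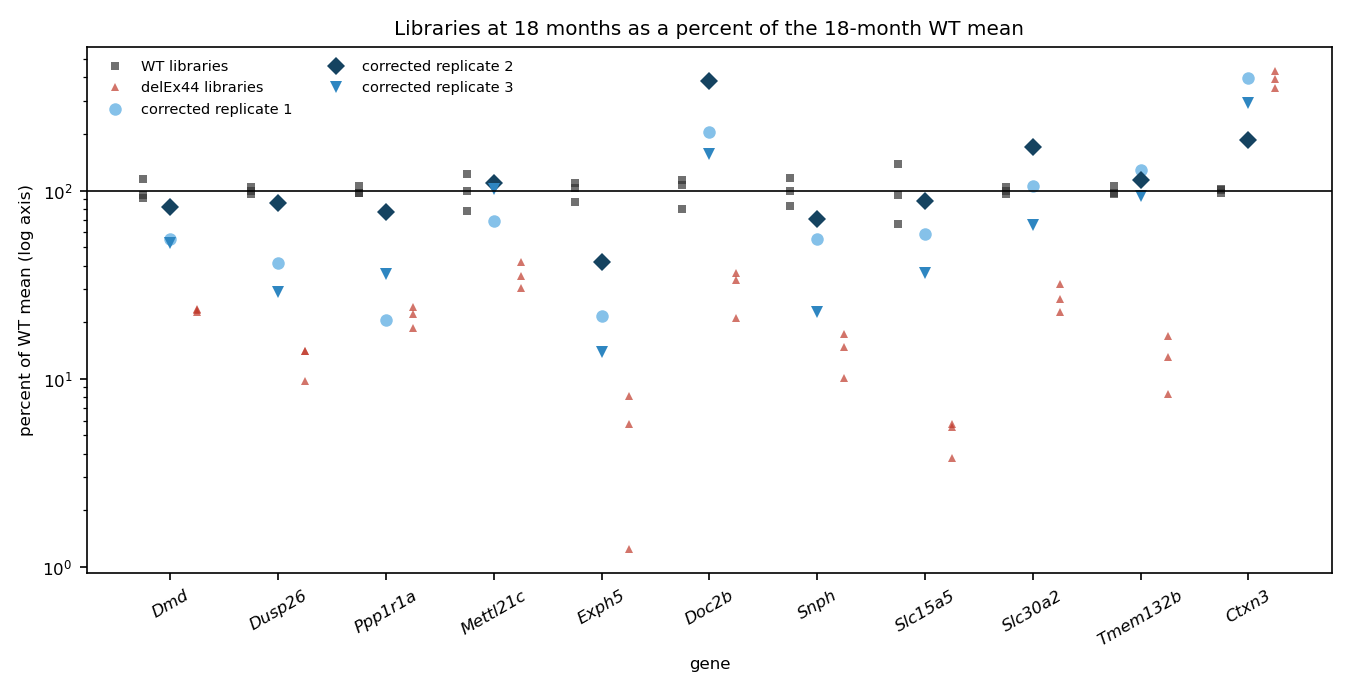
The 18-month libraries as a percent of the mean of the 3 WT libraries (log axis) for Dmd and the 10 genes, with squares for WT, triangles for delEx44 and 1 symbol for each corrected replicate. Corrected replicate 2 lies at 82% for Dmd and is the highest corrected library for every member except Tmem132b and Ctxn3.

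The 3 corrected libraries at 18 months were not alike. Replicate 2 held 304 CPM of Dmd, against 205 and 195 in replicates 1 and 3, or 82%, 55.3% and 52.6% of the WT mean. It stood at 86.5% of the WT mean for Dusp26, against 41.5% and 28.8%, and at 76.6% for Ppp1r1a, against 20.6% and 36.2%. For Exph5 the 3 values were 21.6%, 41.7% and 13.8%, and for Snph 55.6%, 70.3% and 22.6%, so the library with most Dmd held most of these RNAs. For Ctxn3, replicate 2 was the lowest of the 3, at 398%, 187% and 294%. Macrophage markers summed to 331 CPM in replicate 2, within the WT range of 297 to 378, and to 762 and 949 in the others, and slow fibre markers summed to 1790 CPM in replicate 2 and to 143 and 484. The part of either marker list in these values was not tested. Without replicate 2, corrected against WT had 7 members called in place of 2, while calls over all 14337 genes went from 683 to 2859. In that fit Dusp26 was at log2 -1.51 from WT, Ppp1r1a at -1.81, Snph at -1.37 and Ctxn3 at 1.79. Replicate 2 was the corrected library nearest to WT for these genes. Leaving it out therefore moves their values away from WT by construction, and the fit without it is a description. Without replicate 2 Slc30a2 went from log2 0.19 to -0.23 against WT.

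**Figure D4:**
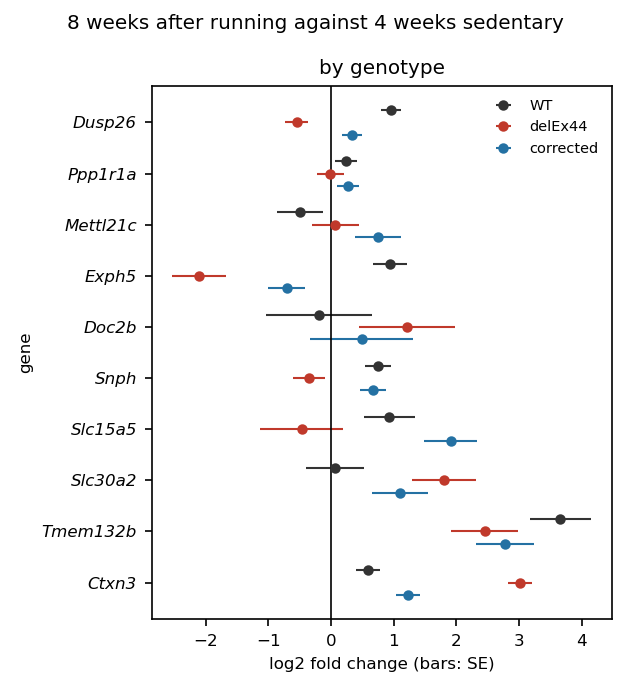
Log2 fold change from 4 weeks sedentary to 8 weeks after running in WT, delEx44 and corrected muscle, with bars for the SE. Exph5 lies at 0.94 in WT and -2.1 in delEx44, Tmem132b lies right of 0 in all 3 genotypes, and Ctxn3 lies at 3.01 in delEx44 against 0.59 in WT.

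From 4 weeks to the run stage, 5 of 10 genes were higher and 0 lower in WT, where 13.4% and 14.2% of all genes were. In delEx44 3 were higher and 2 lower, where 16.4% and 19.3% were, and in corrected muscle 4 were higher and 0 lower, where 12.3% and 13.5% were. Leaving out a library gave 2 or 3 in WT (without 4-week replicate 1 or 2 or run replicate 2), 3 in delEx44 (without 4-week replicate 2 or run replicate 1) and 2 in corrected muscle (without run replicate 1). Calls over all genes fell in the same fits, from 4138 to 3676, 3029 and 2216 in WT, from 5355 to 4731 and 3111 in delEx44 and from 3878 to 1324 in corrected muscle. The counts over 10 genes include comparisons that picked them. Of the 3 genes counted as picked at neither stage, 2 rose in WT, 1 rose and 1 fell in delEx44, and 1 rose in corrected muscle. Dusp26 showed the direction of Exph5 in the libraries that picked it, at log2 0.96 (SE 0.16) in WT and -0.55 (SE 0.18) in delEx44. The call of that fall was lost in 6 of 10 alternative fits, over which the values ran from -0.71 to -0.44. Slc30a2 was at 0.06 (SE 0.46) in WT and 1.8 (SE 0.51) in delEx44, again as a description. The delEx44 difference from WT changed over this step with 1 gene higher, Ctxn3, and 2 lower, Dusp26 and Exph5, where 0.586% and 0.293% of all genes were. This same comparison picked Ctxn3, run libraries picked Dusp26, and they may have picked Exph5, so the counts are descriptions. Of the 3 genes counted as picked at neither stage, 1, Exph5, was lower and 0 were higher. For Dusp26 the call was lost in 6 of 15 alternative fits, with values from -1.66 to -1.36. The corrected difference from delEx44 changed for 1 gene, Ctxn3, which was lower, where 1.01% of all genes were lower and 0.406% higher. Its libraries also picked Ctxn3, and of the same 3 genes 0 were called. Macrophage markers fell over the step in delEx44 for 7 of 9 and young fibre markers for 8 of 8, and the part of these in the members' values was not tested.

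The relatives of the 10 genes held members that fell and members that rose in delEx44. At 4 weeks, 25% of all genes tested were called lower and 25.2% higher in that comparison. Genes named from each list were those with the smallest p in it, so their 4-week values are descriptions with no p. Of 23 other dual-specificity phosphatases tested, 10 fell and 5 rose in delEx44 at 4 weeks with a median of -0.12 on the log2 scale. Dusp13, an atypical phosphatase of muscle, was at log2 -0.8 (SE 0.076) and the catalytically inactive Styx at -0.65 (SE 0.09). Among 12 lysine methyltransferases 4 rose and 4 fell, with Setd7 lower (log2 -0.79, SE 0.086) and Vcpkmt higher (log2 1.4, SE 0.14). Of 28 subunits and inhibitors of protein phosphatase 1, 7 fell and 3 rose. Among them were the glycogen-targeting subunit Ppp1r3a (log2 -0.71, SE 0.089) and the higher Ppp1r18 (log2 0.87, SE 0.082). Of 22 peptide and zinc transporters 7 rose and 4 fell. Slc15a3, a transporter of endosomes in immune cells, was at log2 3.62 (SE 0.25) and Slc30a9 at -0.51 (SE 0.068). Among 24 genes of vesicle docking and fusion 7 fell and 3 rose, with Rph3al, another Rab27 effector, at -0.79 (SE 0.11). Stxbp2 went the other way, with a mean of 11.3 CPM in delEx44 against 3.99 in WT. Of 18 genes of mitochondrial transport 9 fell and 5 rose, with Klc2 at log2 -0.57 (SE 0.066) and Dynll2 at -0.56 (SE 0.071). In the families of Tmem132b and Ctxn3 4 genes were tested and Tmem132a rose (log2 1.31, SE 0.17). At 4 weeks none of these named relatives that fell did so by more than log2 0.8. They were named by p and the members were largely picked by size of difference, so the sizes cannot be compared. The other relatives that fell are not covered.

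At 18 months, where 23.8% of all genes were lower and 28.8% higher, the same lists gave 11 lower and 6 higher of 22 phosphatases, 5 and 4 of 12 methyltransferases, 7 and 6 of 28 phosphatase 1 genes, 1 and 10 of 21 transporters, 3 and 4 of 25 vesicle genes, and 6 and 8 of 17 mitochondrial transport genes. Ppp1r3a fell there by 1.4 on the log2 scale (SE 0.13, adjusted p = 3.2e-05) and Styx by 1.16 (SE 0.14, adjusted p = 0.00011). Both rose again with correction, by 1.22 (SE 0.13, adjusted p = 0.00011) and 1.1 (SE 0.14, adjusted p = 0.00023).

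Likeness to each member was measured as the lower of 2 Pearson correlations of log2 CPM, over the 15 and over the 9 libraries, among 9567 genes. The libraries fall into genotype groups, so these values mainly restate the group differences, and they are descriptions. Dusp26 was most like Lgalsl (0.964) and Cox10 (0.961), Snph was most like Dusp26 (0.953) and Tmem5 (0.933), and Exph5 was most like Asb4 (0.921) and Dusp26 (0.917). Mettl21c was nearest to Kcng4 (0.945) and the fast troponin Tnnc2 (0.938), Ppp1r1a to Mif4gd and Gnao1 (both 0.941), and Slc15a5 to Nmnat1 and Cox10 (both 0.949). Slc30a2 was nearest to Arfgap2 (0.972), Tmem132b to Spsb3 (0.925) and Ctxn3 to Cep19 (0.913), while Doc2b reached only 0.77 with Gadd45b.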

How the data were processed

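PolyA RNA from quadriceps of 24 mice was sequenced, and the authors deposited raw read counts per gene in 2 tables, for 15 libraries (4 weeks, run) and for 9 (18 months). The submitters' processing notes name mm10 and the tools STAR 2.7.2b, HTSeq, SAMtools 1.9, Bowtie2 2.3.4.3, edgeR and Trim Galore. The strand setting is not given in the sources used here, nor is the annotation. The 5 records that name no gene held 27.4% to 48.3% of a library and were left out. For 2 WT columns at 18 months the group is known but not the sample. Replicates are separate samples in the labels and each was taken as 1 mouse; where that does not hold, p-values measure only the spread between these samples, which may be technical. No pair of libraries was identical.

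Counts were fitted with edgeR 4.0.16 in R 4.3.3: filterByExpr, TMM, robust quasi-likelihood with 1 mean per group over all libraries of a table, and Benjamini-Hochberg adjustment over 15013 and 14337 genes with a threshold of 0.05. All 10 genes passed the filter in both fits. The lowest counts were 2 for Exph5, 4 for Tmem132b and 8 for Slc15a5, all in delEx44. The filter can keep such genes for their level in other groups. Their calls with an adjusted p are therefore given with no filter too. TMM factors were 0.8722 to 0.9824 in WT and 1.051 to 1.235 in delEx44. Alternatives were DESeq2 1.42.0, its size factors in edgeR, limma-voom 3.58.1, no filter, only the groups compared, each replicate left out, and a replicate block.

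The members and all gene lists were chosen with earlier results of these data known. Which stage picked a gene was inferred by rank, since the rule used is not known: the 6 largest differences of a genotype comparison, or the 6 smallest p of a running comparison. In a genotype comparison the gene also had to pass without overlap of libraries, at a mean of at least 5 CPM in either group. A gene under that level, such as Exph5 after running or Slc15a5 at 4 weeks, may still have been picked there. Named genes were the 10 members, the 2 genes most like each (mean of at least 5 CPM), and from each related list the 2 with the smallest p for delEx44 against WT at 4 weeks. Log2 CPM used a prior count of 2. Positions come from GENCODE vM21 and promoters from RefSeq, both on GRCm38.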

Additional observations from a re-analysis of the deposited data

Results flagged for a closer look

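The 4-week to run step moved Exph5 in opposite directions in 2 genotypes: the delEx44 minus WT difference changed by log2 -3.04 (adjusted p = 0.027, edgeR), with both run libraries above all 4-week libraries in WT and below them in delEx44. In corrected muscle both run libraries of Exph5 also lay below the 4-week ones, and its change was lower than that in WT by log2 -1.65; that difference was not tested. For Dusp26 both run libraries lay above all 4-week libraries in WT and below them in delEx44, a difference of log2 -1.51. The Slc15a5 libraries were placed likewise, with a difference of log2 -1.40, but its fitted changes were 0.93 (SE 0.41) in WT and -0.47 (SE 0.66) in delEx44, the latter smaller than its SE and from 8 to 17 counts. Run libraries of Slc15a5 also lay above the 4-week ones in corrected muscle, and its change there exceeded that in delEx44 by log2 2.38. The differences for Dusp26 and Slc15a5 are given without a test, since run libraries picked both genes. Run libraries may have picked Exph5 as well. Groups of 2 or 3 libraries are too small for a check of single libraries that stand apart.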

How the results depend on the processing

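Of 69 member differences past the threshold, with 735 values under the alternatives, 677 kept direction and call, 58 kept direction but lost the call and 0 changed direction; the causes were not tested. The 69 include comparisons whose libraries picked the gene. There the choice itself favoured a lasting call, so this tally does not measure how well the differences hold. Members called in corrected against WT at 18 months were 2, with 4 by DESeq2, 0 in a fit of the groups compared, and 0 to 7 with a replicate left out; over all genes the same fits called 683, 1638, 16 and 9 to 2859. In corrected against WT after running they were 0, and 1 by DESeq2, where these fits called 3 and 82 over all genes. From 4 weeks to the run stage they were 5 in WT (2 to 4 with a replicate left out), 5 in delEx44 (3 by limma-voom, 3 to 4 with a replicate left out) and 4 in corrected muscle (2 to 5). Calls over all genes were 4138 in WT (2216 to 3676), 5355 in delEx44 (5684 by limma-voom, 3111 to 4869) and 3878 in corrected muscle (1324 to 3590). The change of the delEx44 difference with running was called for 3 genes (1 to 3 with a replicate left out), and that of the corrected difference for 1 (2 by DESeq2, 0 to 1). Over all genes the calls were 132 (11 to 167 with a replicate left out) and 213 (864 by DESeq2, 0 to 308).

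Small differences that did not pass changed sign when a replicate was left out. For Doc2b at 4 weeks the log2 values ran from -0.63 to 0.02 (delEx44 against WT), -0.03 to 0.24 (corrected against delEx44) and -0.53 to 0.12 (corrected against WT). After running they ran from -0.54 to 2.6, -2.55 to 0.96 and -1.52 to 1.99. Its step to the run stage ran from -1.76 to 0.54 in WT, -0.36 to 1.94 in delEx44 and -1.44 to 1.32 in corrected muscle, the last being -0.1 by limma-voom, and its 2 interaction values from -0.17 to 2.96 and -2.65 to 0.85. Corrected against WT ran from -0.04 to 0.15 for Dusp26 at 4 weeks, -1 to 0.14 for Tmem132b after running, -0.24 to 0.08 for Mettl21c and -0.23 to 0.46 for Slc30a2 at 18 months. The change of the corrected difference of Tmem132b ran from -0.65 to 0.79, and was 0.00 by limma-voom.

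The replicate block could be fitted for corrected against delEx44 at 18 months. There the deviations of same-numbered libraries from their group means correlated at -0.03, 0.03 and -0.05. Those of differently numbered libraries correlated at -0.07 to 0.1. No pairing by number was seen, though 3 libraries per group are few to show one. With the block Snph had log2 1.72 (adjusted p = 0.059) and Exph5 log2 2.25 (adjusted p = 0.082). With no filter on low counts 1 of 69 calls was lost (Ctxn3, from 4 weeks to the run stage in WT). Depth limits Exph5, Slc15a5, Tmem132b, Doc2b and Snph, whose lowest counts per library were 2, 8, 4, 10 and 11.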
